A study of Mus musculus with 6 samples.

Results

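Genes that burn fatty acids and genes that build fatty acids and sterols were examined in TKPTS cells, a mouse kidney proximal tubule line, after overexpression of the forkhead transcription factor HNF3α (FOXA1, gene Foxa1). The 34 genes were set by a list of symbols, and all 34 were found in the deposited table of 29595 genes and passed the filter on low counts, beside 17824 genes tested in all. There were 17 oxidation genes, 5 fatty acid synthesis genes and 12 sterol genes, and these were kept apart throughout. Cells of the Hnf3a group received the plasmid pcDNA3.1-Hnf3a-Flag and cells of the pcDNA group the plasmid pcDNA3.1-Flag without an insert, with 3 libraries of polyadenylated RNA in each group. All cells were harvested 24 h after transfection. Both groups carried a plasmid and the transfection reagent, no TGF-β1 treatment is named for these libraries, and all libraries came from 1 cell line. Nothing states that the libraries of a group were separate experiments, so the p-values measure the spread between these libraries, which may be technical. The comparison asks what HNF3α overexpression does to the transcriptome of an epithelial cell of the tubule.

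Long-chain fatty acids are activated by acyl-CoA synthetases, carried into mitochondria by the carnitine palmitoyltransferases and shortened there in a cycle of dehydrogenation, hydration, a further dehydrogenation and cleavage by thiolase. The kidney proximal tubule is known to rely heavily on this cycle for its energy. Synthesis runs the other way in the cytosol, from acetyl-CoA through malonyl-CoA to palmitate, and the stearoyl-CoA desaturases then add a double bond. Sterols are made from acetyl-CoA through mevalonate, isoprenoids and squalene. The SREBP factors (genes Srebf1 and Srebf2) switch on both synthetic pathways, SREBP-1 mainly that of fatty acids and SREBP-2 mainly that of sterols, and INSIG1 holds them in the endoplasmic reticulum when sterol is plentiful.

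Of the 34 genes, Acaa2, a thiolase of the mitochondrial cycle, was the only one past the threshold, and it was 1.58-fold higher in the Hnf3a group. None of the other 16 oxidation genes, none of the 5 fatty acid synthesis genes and none of the 12 sterol genes passed. Scd1, Scd2 and Srebf1, on the fatty acid synthesis side, had the next smallest p-values, with fold changes of 1.10, 1.11 and 1.09 and adjusted p-values of 0.0567, 0.143 and 0.0912. The 12 sterol genes differed least, with log2 fold changes between -0.14 and 0.04.

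Tests were made with edgeR's quasi-likelihood method on the estimated counts, with Benjamini-Hochberg adjusted p-values over the whole table and a threshold of 0.05. Of all genes tested, 565 (3.17%) passed, of which 186 (1.04%) were higher with Hnf3a and 379 (2.13%) were lower, so the 1 of 34 (2.94%) found here was close to the background. At an unadjusted p under 0.05 there were 10 of the 34, 7 with higher and 3 with lower values, which is 29.4% against 13.5% of all genes tested. The FPKM values of both groups did not overlap in 8 of the 34 (23.5%), against 19.0% of all genes tested. The median log2 fold change of the 34 was 0.01, and that of all genes tested was 0.00. The 95% interval of the fold change lay inside 1.2-fold in either direction for 27 of the 34, against 45.6% of all genes tested. The 7 outside it were Acaa2, Acadm, Cpt1a, Cpt1b, Cpt2, Ehhadh and Ppargc1a, all oxidation genes. The width of an interval depends on its SE, and the median SE was 0.047 for the 34 and 0.089 over all genes tested. Their median absolute log2 fold change was 0.071, against 0.088 over all genes tested. In these bulk samples, a change in the number of expressing cells and a change of RNA per cell cannot be told apart.

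**Figure D1:**
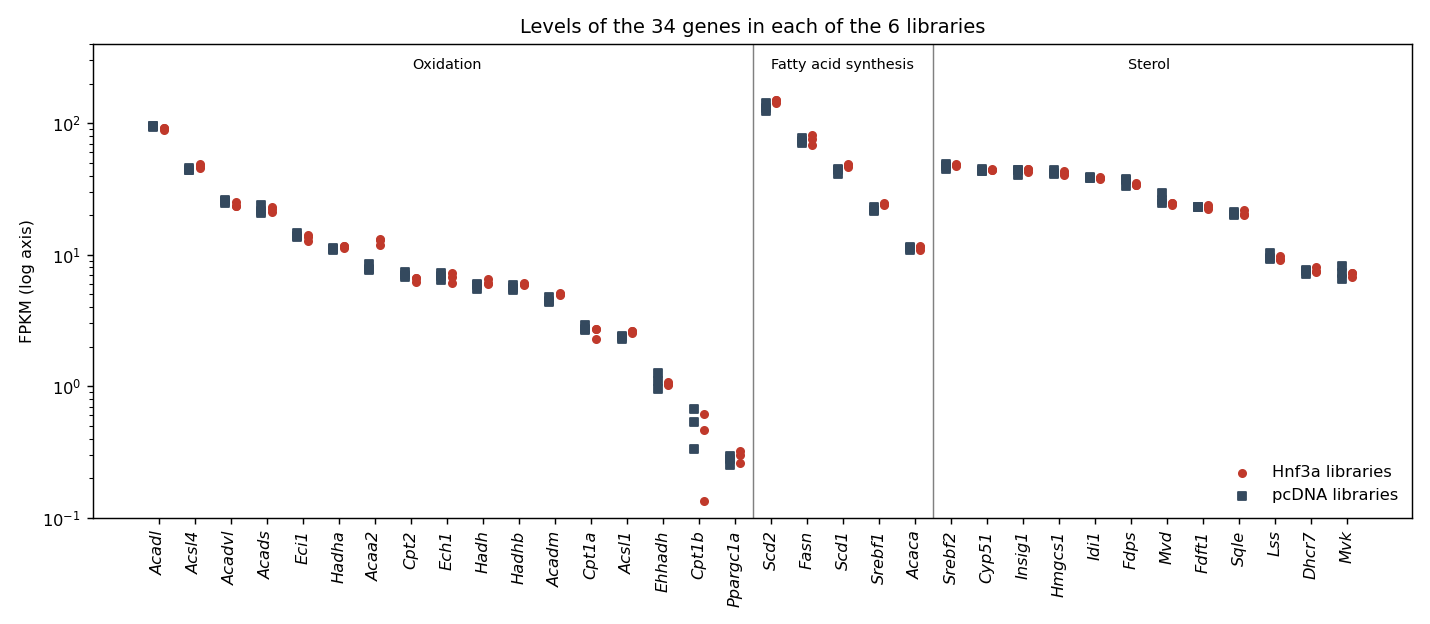
Levels of the 34 genes in FPKM on a log axis, ordered within oxidation, fatty acid synthesis and sterol genes by the pcDNA mean. Each square is a pcDNA library and each circle an Hnf3a library, 3 per group, and the widest gap between groups is that of Acaa2.

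The overexpression itself was plain in the data. Foxa1 stood at 334, 296 and 284 FPKM (fragments per kilobase of transcript, scaled to library size) in the Hnf3a libraries and at 9.49, 9.54 and 9.96 FPKM in the pcDNA libraries. This was 31.3-fold higher (log2 fold change 4.97, SE 0.07, edgeR adjusted p = 5.99e-10), and reads from the plasmid and from the cells' own gene cannot be told apart. Library totals lay between 60473818 and 71154667 estimated counts. The epithelial markers were abundant in every library, with Epcam at 102 to 106 FPKM and summed levels of 6 markers of 1010 to 1016 FPKM in Hnf3a and 944 to 960 FPKM in pcDNA, where Krt18 and Krt19 passed as higher, and the kidney factor Pax8 stood at 27.5 to 31.4 FPKM. By contrast, the receptors Lrp2 and Cubn, which define the proximal tubule in tissue, stayed at or under 0.0534 FPKM in all 6 libraries, and none of the 9 proximal tubule markers that could be tested passed the threshold. Hnf3a replicates 2 and 3 stood apart from the other 4 libraries in transcripts of other cell types. The summed level of 12 fibroblast markers was 10.3 and 12.3 FPKM there, against 2.87 FPKM in Hnf3a replicate 1 and 2.15 to 2.49 FPKM in the pcDNA libraries. For 12 skeletal muscle markers the sums were 8.13 and 8.79 FPKM against 4.77 FPKM in replicate 1 and 4.05 to 5.00 FPKM in pcDNA, and Myh1, a muscle myosin, was at 0.29 and 0.36 FPKM in those libraries and at 0 in the other 4. The sums of 14 macrophage markers were 35.2 to 42.8 FPKM in Hnf3a and 48.6 to 51.8 FPKM in pcDNA, and 13 of the 14 were over the floor of 12 counts in Hnf3a replicates 2 and 3, against 4 or 5 in the others. The adipocyte genes Adipoq and Plin1, which define a cell rich in fatty acid synthesis, were at or under 0.0729 FPKM in every library, and the sum of 10 adipocyte markers was 2.32 to 2.67 FPKM in Hnf3a and 2.22 to 2.44 FPKM in pcDNA. For 10 liver markers the sums were 5.66 to 9.55 FPKM and 8.95 to 15.0 FPKM, and Ahsg passed as lower. Cd14 passed as lower among the macrophage markers, and no fibroblast, muscle or adipocyte marker passed.

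Among the oxidation genes, levels spanned a wide range, from the co-activator Ppargc1a at 0.28 ± 0.02 FPKM (SD, n = 3) in the pcDNA group to the long-chain acyl-CoA dehydrogenase Acadl at 94.7 ± 1.03 FPKM. Of the 17 genes, 1 was called (5.88%, against 3.17% of all genes tested), 8 had positive and 9 had negative log2 fold changes, and the median was -0.01. The groups did not overlap in 6 (35.3%, against 19.0% of all genes tested). These were Acaa2, Acadm, Acsl1 and Acsl4 on the high side and Cpt2 and Acadl on the low side. The summed FPKM of the 17 was 257, 261 and 260 for Hnf3a and 255, 252 and 263 for pcDNA, which overlapped.

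Acaa2 encodes 3-ketoacyl-CoA thiolase, which cuts acetyl-CoA from the chain in the last step of the mitochondrial cycle. The gene (ENSMUSG00000036880) occupies chromosome 18, positions 74779197 to 74806208 of GRCm38, plus strand. No other annotated gene overlaps it, and the counts cover its transcripts as a whole. It was measured at 13.0, 13.1 and 11.9 FPKM in the Hnf3a libraries and at 7.71, 7.74 and 8.47 FPKM in the pcDNA libraries. All 3 Hnf3a libraries were above all 3 pcDNA libraries, and the gap between groups was larger than the spread within either. The means were 12.7 ± 0.67 and 7.97 ± 0.43 FPKM (SD, n = 3), with a log2 fold change of 0.66 (SE 0.07, 95% interval 0.50 to 0.82, edgeR adjusted p = 0.000129), which placed it at rank 74 by p among all genes tested. In Hnf3a replicate 1, where fibroblast and muscle marker sums were lower than in replicates 2 and 3, Acaa2 was as high as there. The liver marker sum was higher in replicate 1, at 9.55 FPKM against 5.77 and 5.66 FPKM. With Hnf3a replicates 2 and 3 left out, the log2 fold change of Acaa2 was 0.70. The part of other cell types in this result was not tested.

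None of the other enzymes of the cycle passed the threshold. Hadha and Hadhb encode the subunits of the trifunctional protein, whose beta subunit is also a thiolase, for long chains. Hadha stood at 11.5 ± 0.22 against 11.1 ± 0.22 FPKM (log2 fold change 0.05, 95% interval -0.02 to 0.12) and Hadhb at 5.97 ± 0.12 against 5.64 ± 0.29 FPKM (0.07, -0.03 to 0.18). As a ratio of FPKM, Acaa2 over Hadhb was 2.23, 2.16 and 1.99 for Hnf3a and 1.37, 1.31 and 1.58 for pcDNA. Acaa2 over Acadl was 0.140 ± 0.009 against 0.084 ± 0.004. Both ratios were higher in every Hnf3a library than in any pcDNA library. Hadh, the dehydrogenase for medium and short chains, stood at 6.21 ± 0.26 against 5.79 ± 0.27 FPKM, with overlapping groups and a log2 fold change of 0.09.

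**Figure D2:**
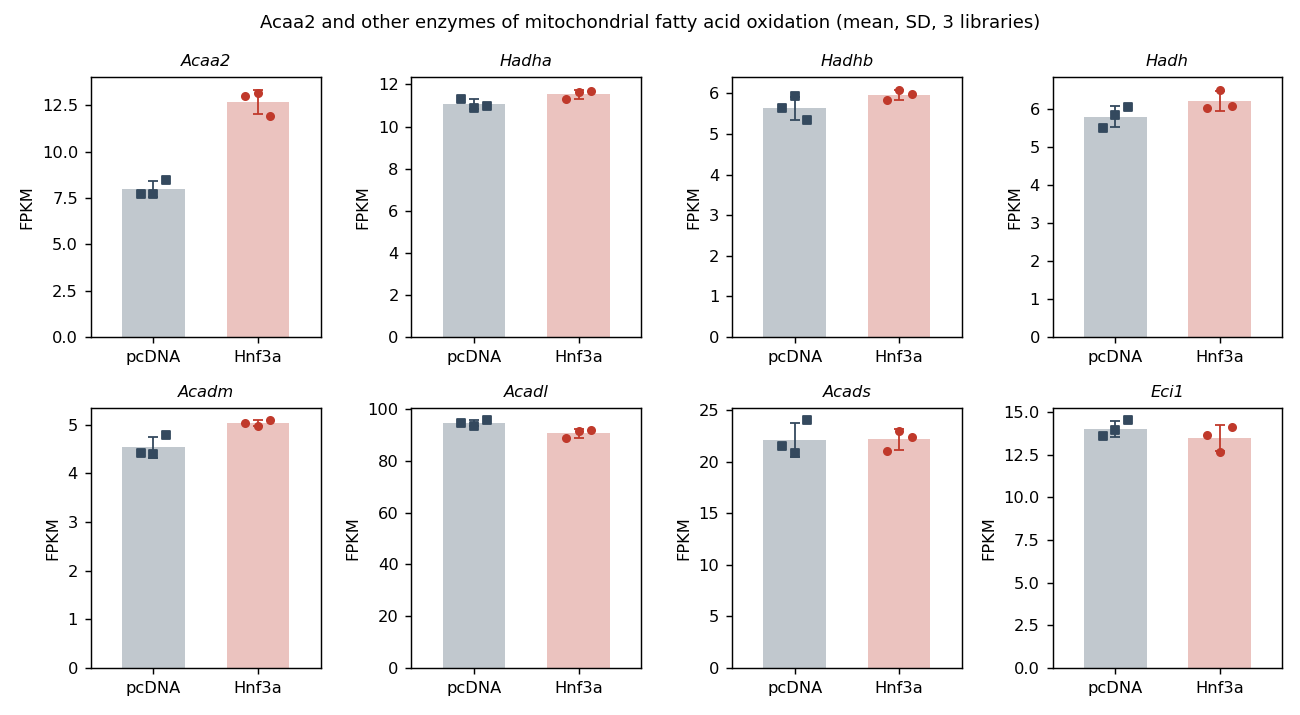
FPKM of Acaa2 and 7 other enzymes of the mitochondrial cycle in the 3 pcDNA libraries (squares) and the 3 Hnf3a libraries (circles), with bars at the group mean and error bars of 1 SD. Acaa2 rises from 7.97 to 12.7 FPKM, while the others differ by at most 0.14 on the log2 scale.

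The acyl-CoA dehydrogenases, which open the cycle and divide the chain lengths between them, pointed in different directions, and none passed the threshold. Acadm, for medium chains, was at 5.03, 4.97 and 5.09 FPKM in Hnf3a and 4.43, 4.40 and 4.78 FPKM in pcDNA. Its groups did not overlap, with a log2 fold change of 0.14 (SE 0.06, edgeR adjusted p = 0.345). Acadl, for long chains, was at 88.7, 91.5 and 91.8 FPKM against 94.7, 93.6 and 95.7 FPKM, also without overlap, and its log2 fold change was -0.07 (SE 0.03, edgeR adjusted p = 0.319). Acadvl, for very long chains, stood at 23.997 ± 1.04 against 25.4 ± 0.59 FPKM (-0.09, edgeR adjusted p = 0.336). Acads, for short chains, was level in the groups at 22.2 ± 0.98 and 22.1 ± 1.68 FPKM (-0.01, 95% interval -0.12 to 0.11).

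Entry of fatty acids into mitochondria is set by the carnitine shuttle. Cpt1a, the liver-type enzyme of the outer membrane and the usual control point, stood at 2.57 ± 0.23 against 2.76 ± 0.14 FPKM (log2 fold change -0.11, 95% interval -0.27 to 0.05). Cpt2, its partner on the inner membrane, was at 6.23, 6.60 and 6.67 FPKM in Hnf3a and 7.06, 6.73 and 7.37 FPKM in pcDNA, where the groups did not overlap, and the test gave -0.13 (SE 0.07, edgeR adjusted p = 0.471). Cpt1b, the muscle form, was scarce and uneven, with estimated counts of 115, 166 and 34 for Hnf3a and of 155, 134 and 84 for pcDNA. Its interval, from -1.59 to 0.88, was the widest of the 34 genes, and it shares its strand with the overlapping gene Gm44502.

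Acsl1 and Acsl4 activate fatty acids, Acsl4 with a preference for arachidonate. Acsl1 was at 2.65, 2.54 and 2.64 FPKM in Hnf3a and at 2.38, 2.40 and 2.29 FPKM in pcDNA, with every Hnf3a library above every pcDNA library (log2 fold change 0.14, SE 0.05, edgeR adjusted p = 0.246). Acsl4 was at 48.9, 46.0 and 47.6 FPKM against 44.0, 44.4 and 45.9 FPKM. The groups were separated only narrowly, and the log2 fold change was 0.08 (SE 0.03, edgeR adjusted p = 0.318). In length-corrected level Acsl4 exceeded Acsl1 18.2-fold in Hnf3a and 19.0-fold in pcDNA.

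The remaining oxidation genes overlapped between groups. Ech1 and Eci1, which rearrange double bonds so that unsaturated chains can enter the cycle, had log2 fold changes of -0.04 and -0.06. Ehhadh, the bifunctional enzyme of peroxisomes, stood at 1.05 ± 0.03 against 1.10 ± 0.15 FPKM, with a log2 fold change of -0.07. Ppargc1a, a co-activator of mitochondrial genes, was between 0.25 and 0.32 FPKM in all 6 libraries, and its interval, from -0.31 to 0.48, was wide.

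**Figure D3:**
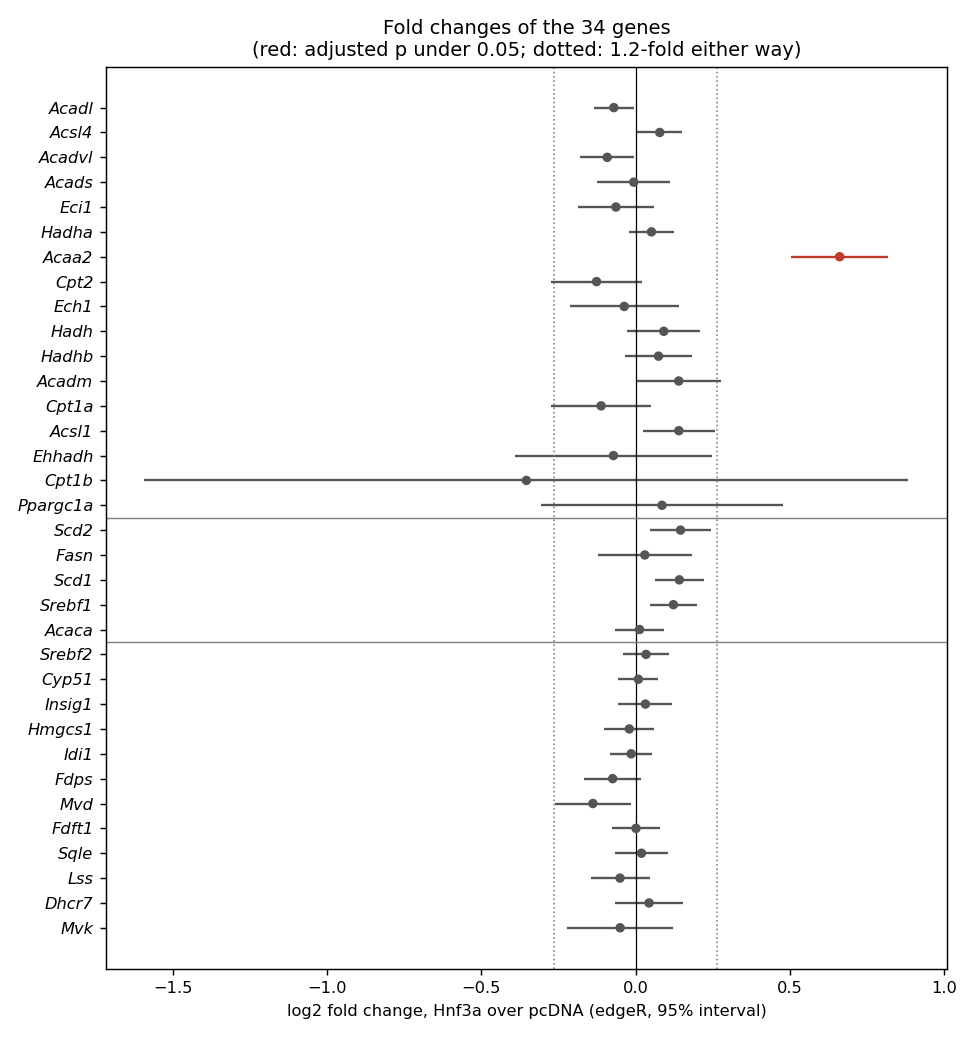
Log2 fold changes of Hnf3a over pcDNA for the 34 genes from edgeR, with 95% intervals, in the order oxidation, fatty acid synthesis and sterol genes from top to bottom. Acaa2, in red, is the only gene with an adjusted p under 0.05, and all 5 fatty acid synthesis and all 12 sterol genes have intervals inside the dotted lines at 1.2-fold.

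The fatty acid synthesis genes were expressed at high levels, from 11.1 ± 0.28 FPKM for Acaca to 132 ± 9.43 FPKM for Scd2 in the pcDNA group, and Scd2 had the highest level of all 34 genes. None of the 5 passed the threshold, all 5 log2 fold changes were positive, and the median was 0.12. At an unadjusted p under 0.05 there were 3 of the 5 (60%, against 13.5% of all genes tested), which were Scd1, Scd2 and Srebf1. All 5 intervals lay inside 1.2-fold, the outermost bounds being 0.92-fold and 1.18-fold. The summed FPKM of the 5 genes was 318, 301 and 301 in Hnf3a and 270, 279 and 299 in pcDNA. The lowest Hnf3a sum was just above the highest pcDNA sum.

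Scd1 and Scd2 lie on chromosome 19, with Scd4 between them, and encode desaturases that turn stearate into oleate. Scd1 was at 48.8, 46.8 and 48.4 FPKM in the Hnf3a libraries and at 41.1, 43.7 and 45.0 FPKM in the pcDNA libraries, without overlap. Its log2 fold change was 0.14 (SE 0.04, 95% interval 0.06 to 0.22), and the edgeR adjusted p of 0.0567 missed the threshold narrowly. It passed in 5 of 16 alternative fits, with adjusted p-values of 0.00583 in DESeq2 and 0.0293 in edgeR after a stricter filter on low values, so this gene is at the edge of detection. Of all genes, 4.62% passed in DESeq2 and 4.96% after the stricter filter. Scd2 was at 150.7, 142.3 and 149.2 FPKM against 123.7, 131.3 and 142.4 FPKM, and Hnf3a replicate 2 fell just under pcDNA replicate 3. Its log2 fold change was 0.15 (SE 0.05, edgeR adjusted p = 0.143), and without pcDNA replicate 3 it passed, at 0.20 (edgeR adjusted p = 0.0271). The ratio of Scd2 to Scd1 was 3.07 ± 0.03 in Hnf3a and 3.06 ± 0.09 in pcDNA. The genes are paralogs, and how reads that fit both were shared out is not given in the sources used here.

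Srebf1 was at 24.8, 23.9 and 24.3 FPKM in Hnf3a and 22.0, 21.7 and 23.0 FPKM in pcDNA. All Hnf3a libraries were higher, and the log2 fold change of 0.12 (SE 0.04, edgeR adjusted p = 0.0912) did not pass. It passed in DESeq2 (adjusted p = 0.0302) and in edgeR after the stricter filter (0.0479). Rai1 overlaps it on the opposite strand. Fasn, the synthase that makes palmitate, is a classical target of SREBP-1, and it stood at 75.7 ± 6.53 against 73.7 ± 3.19 FPKM (0.03, 95% interval -0.12 to 0.18). Acaca, which makes malonyl-CoA in the committed step, stood at 11.3 ± 0.45 against 11.1 ± 0.28 FPKM (0.01, 95% interval -0.07 to 0.09). In both of these genes the groups overlapped widely.

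Of the 3 groups, the sterol genes differed least. Their median absolute log2 fold change was 0.03, against 0.09 over all genes tested. Their median SE was also smaller, at 0.04 against 0.09. The 33 further sterol genes tested, described below, had a median absolute log2 fold change of 0.08 (median SE 0.05), so the small value holds for these 12 only. Their pcDNA means lay between 7.29 FPKM for Mvk and 46.7 FPKM for Srebf2, 6 log2 fold changes were positive and 6 negative, and the median was -0.01. None passed the threshold, and 1 had an unadjusted p under 0.05 (8.33%, against 13.5% of all genes tested). In none did the groups separate, against 19.0% of all genes tested. The 95% intervals of all 12 lay inside 1.2-fold, with outermost bounds of 0.83-fold and 1.11-fold. Summed over the 12 genes, the level was 347, 338 and 344 FPKM in Hnf3a and 333, 343 and 356 FPKM in pcDNA.

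Srebf2, which encodes the factor that drives the pathway, stood at 48.1 ± 0.88 against 46.7 ± 1.99 FPKM (log2 fold change 0.03, 95% interval -0.04 to 0.11). Insig1, which retains SREBPs and is itself a sensitive SREBP target, stood at 44.2 ± 1.17 against 43.0 ± 2.20 FPKM (0.03, -0.06 to 0.12). The ratio of Srebf2 to Srebf1 was 1.98 ± 0.03 in Hnf3a and 2.10 ± 0.07 in pcDNA.

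Of the enzymes that lead to isoprenoids, Hmgcs1, which makes HMG-CoA, had a log2 fold change of -0.02 (95% interval -0.10 to 0.06), Mvk, mevalonate kinase, of -0.05, and Idi1, the isomerase, of -0.01. Mvd, the decarboxylase, was at 24.5, 23.8 and 24.9 FPKM in Hnf3a and at 24.8, 26.0 and 29.3 FPKM in pcDNA. Its log2 fold change of -0.14 (SE 0.06, edgeR adjusted p = 0.293) was the furthest from 0 in this group, and pcDNA replicate 3 set the high end. Fdps, which makes farnesyl diphosphate, stood at 34.2 ± 0.68 against 35.8 ± 2.30 FPKM, with a log2 fold change of -0.07.

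The squalene branch was level as well. Fdft1, squalene synthase, stood at 23.1 ± 0.77 against 23.0 ± 0.08 FPKM, and Sqle, the epoxidase that follows, at 20.8 ± 0.94 against 20.4 ± 0.54 FPKM. Lss, which closes the rings, had a log2 fold change of -0.05, Cyp51, the lanosterol demethylase, of 0.01, and Dhcr7, which completes cholesterol, of 0.04. All of these groups overlapped. For members that overlap another gene on the opposite strand, such as Fdft1 with Ctsb, Cyp51 with Akap9 and Acadvl with Dvl2, use of strand in the counting is not given, so reads of both genes may be mixed.

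**Figure D4:**
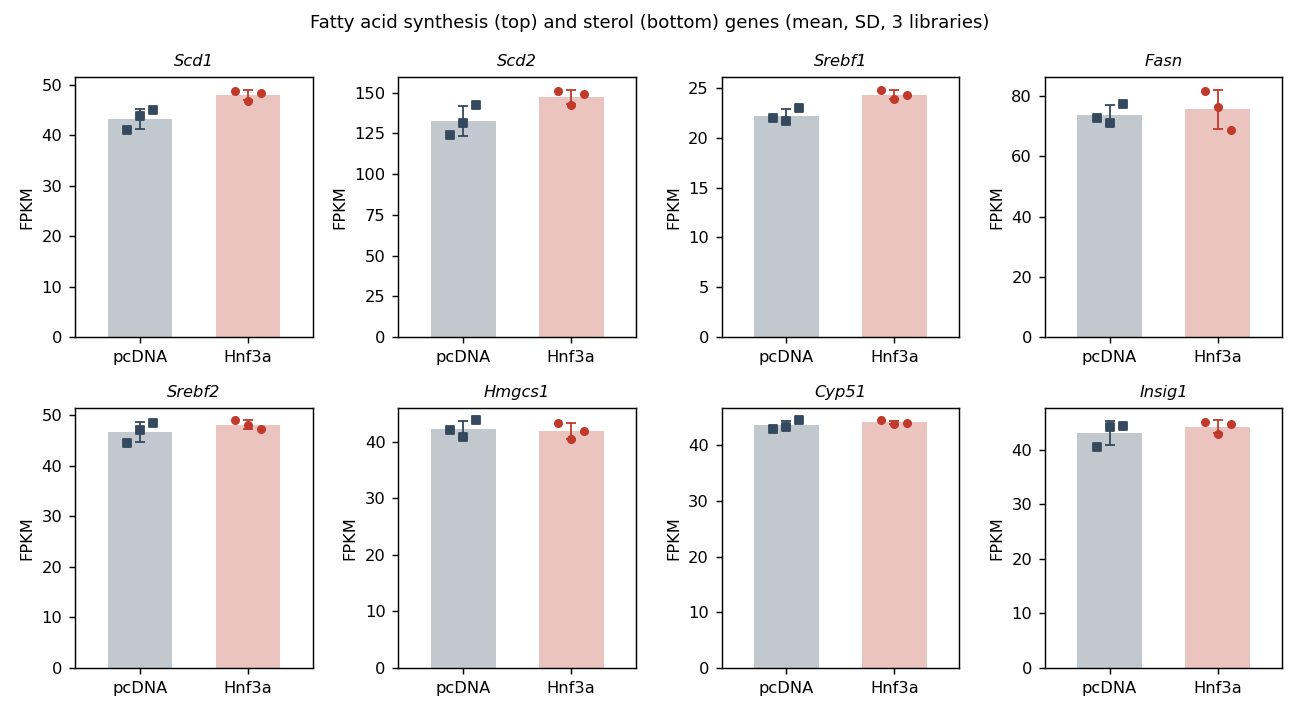
FPKM of 4 fatty acid synthesis genes (top) and 4 sterol genes (bottom) in the 3 pcDNA libraries (squares) and the 3 Hnf3a libraries (circles), with bars at the group mean and error bars of 1 SD. Scd1 and Srebf1 separate by group without passing the test, and the other 6 overlap.

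The starts of the genes were read to show which letters known to serve the SREBP and forkhead factors lie there. For 27 of the 34 genes RefSeq (GRCm38.p6) promoter sequences were matched, and the 250 bases before each start were searched on both strands, next to those of 27025 genes. Acaa2, Scd1, Scd2, Cpt1b, Fdft1, Fdps and Sqle were not among them. CCAAT, the box bound by NF-Y, a partner of SREBP at sterol genes, was present at all 9 sterol genes matched, at Fasn and Srebf1 among the 3 fatty acid synthesis genes and at 4 of the 15 oxidation genes. Of all genes, 37.5% had it. Counted by annotated start, it was at 9 of 11 sterol starts (81.8%) and at 33.8% of all starts. Among the further pathway genes described below, CCAAT was at 23 of 39 oxidation genes matched (59.0%). In the other 2 further lists it was at 16 of 32 fatty acid synthesis genes (50%) and 16 of 26 sterol genes (61.5%). The sterol regulatory element searched for, TCACCCCAC, was found at Hmgcs1 and Acsl1, and at 0.555% of all genes. The forkhead letters TGTTTAC or TGTTTGC were found at none of the 27 and at 8.22% of all genes. The E-box CACGTG was found at Dhcr7 and Insig1, and at 6.86% of all genes, and AGGTCA repeated after 1 base was found at none of the 27 and at 0.0407% of all genes. A match is a description of letters only. As examples, 4 sterol and 2 fatty acid synthesis promoters are printed 5′ to 3′ along the gene, with CCAAT boxes (ATTGG on the other strand) and the sterol element in capitals. For Idi1, Cyp51 and Dhcr7 the CCAAT boxes themselves lie inside the gene as the deposited table bounds it, so their windows are not printed. The RefSeq starts of Srebf2, Insig1 and Ch25h also lie inside those bounds, but the windows printed for them lie before the gene. Lss and Mvd also have CCAAT boxes and are not shown, and Srebf1 is shown at 1 of its 3 annotated starts.
Hmgcs1, chr13:119690101-119690325, plus strand: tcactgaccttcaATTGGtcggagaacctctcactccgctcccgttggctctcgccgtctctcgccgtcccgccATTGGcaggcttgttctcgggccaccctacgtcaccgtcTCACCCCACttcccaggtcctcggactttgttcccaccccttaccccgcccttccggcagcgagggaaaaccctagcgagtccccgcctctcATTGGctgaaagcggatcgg
Mvk, chr5:114444081-114444268, plus strand: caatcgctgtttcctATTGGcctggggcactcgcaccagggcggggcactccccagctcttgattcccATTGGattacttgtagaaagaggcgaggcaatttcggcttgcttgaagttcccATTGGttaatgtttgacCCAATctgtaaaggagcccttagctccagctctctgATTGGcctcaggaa
Srebf2, chr15:82147119-82147153, plus strand: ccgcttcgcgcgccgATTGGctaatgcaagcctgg
Insig1, chr5:28071181-28071215, plus strand: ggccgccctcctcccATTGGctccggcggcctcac
Fasn, chr11:120824587-120824652, minus strand: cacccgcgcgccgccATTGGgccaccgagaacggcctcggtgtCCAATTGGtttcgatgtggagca
Srebf1, chr11:60222728-60222762, minus strand: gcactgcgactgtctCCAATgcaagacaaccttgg
Hmgcs1 combined the sterol element with 3 CCAAT boxes, and Mvk, whose start is 209 bases from that of Mmab, carried 5. In Fasn, 2 of the 3 boxes overlap on opposite strands. These promoters belong to genes whose log2 fold changes lay between -0.05 and 0.12.

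Other genes of the same pathways were taken from lists drawn up by function. Of 110 that could be tested, 5 (4.55%) passed the threshold, 1 higher and 4 lower in the Hnf3a group, against 3.17% of all genes tested. Of 44 further oxidation genes, 2 passed, of 33 further genes of fatty acid and triglyceride synthesis, 1 passed, and of 33 further sterol genes, 2 passed. The medians of the log2 fold changes were 0.02, 0.00 and 0.02.

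Acox2, an oxidase of peroxisomes that shortens branched chains and bile acid precursors, was lower at 2.05, 1.71 and 2.20 FPKM in Hnf3a against 3.00, 3.04 and 2.73 FPKM in pcDNA. The groups were well apart, with a log2 fold change of -0.57 (SE 0.11, edgeR adjusted p = 0.00939). Without Hnf3a replicate 2, pcDNA replicate 1 or pcDNA replicate 2 the adjusted p of Acox2 became 0.0606, 0.0682 and 0.0758, and without both Hnf3a replicates 2 and 3 it was 0.10. Ppara, a nuclear receptor for fatty acids that controls oxidation genes, had 17, 35 and 46 estimated counts in Hnf3a and 0, 7 and 0 in pcDNA. All pcDNA values lay under the floor of 12 counts, so the gene was at least 2.45-fold higher in Hnf3a against that floor per library (edgeR adjusted p = 0.048), and at 0.06 to 0.16 FPKM it was barely expressed. Its higher counts were in Hnf3a replicates 2 and 3, the libraries with fibroblast, muscle and macrophage transcripts described above, and the part of these in the result was not tested. The call of Ppara was lost without either of these libraries (edgeR adjusted p of 0.20 and 0.193), without pcDNA replicate 1 (0.202) and without pcDNA replicate 3 (0.177).

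Dgat2, which adds the last fatty acid to triglyceride, was at 6.31, 6.48 and 6.26 FPKM against 7.55, 7.21 and 7.97 FPKM. Every Hnf3a library was below every pcDNA library, and the log2 fold change was -0.26 (SE 0.06, edgeR adjusted p = 0.0285), a call that was lost when any 1 library was left out (adjusted p from 0.0521 without Hnf3a replicate 1 to 0.141 without pcDNA replicate 3). Npc2, which hands cholesterol to NPC1 in lysosomes, was at 74.6, 78.2 and 80.5 FPKM against 87.0, 89.3 and 89.7 FPKM. The groups did not overlap, with a log2 fold change of -0.20 (SE 0.03, edgeR adjusted p = 0.00272), and the call of Npc2 held with any 1 library left out. Ch25h, which makes 25-hydroxycholesterol, an inhibitor of SREBP processing, was at 2.75, 3.15 and 2.26 FPKM against 4.52, 3.67 and 3.92 FPKM. The log2 fold change was -0.58 (SE 0.14, edgeR adjusted p = 0.0494), close to the threshold and lost when any 1 library was left out (adjusted p from 0.0721 without Hnf3a replicate 2 to 0.236 without pcDNA replicate 1), and Gm26902 overlaps it on the opposite strand. The summed macrophage markers, most of which was Cd14, were also lower in the Hnf3a libraries, by the values given above. Of the 7 macrophage markers that could be tested, however, 6 had positive log2 fold changes (median of the 7, 0.82), and Cd14 alone was lower. The part of these markers in the results for Npc2 and Ch25h was not tested.

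Forkhead letters were found before the start of 2 of 26 further sterol genes matched (7.69%, against 8.22% of all genes), Ch25h and Ggps1. Among the other further genes they were at Acot1, Slc27a2, Aacs, Elovl6 and Lpin2. Of these 7, Ch25h alone passed the test, and its window is shown, with the letters, read on the other strand, in capitals.
Ch25h, chr19:34475350-34475386, minus strand: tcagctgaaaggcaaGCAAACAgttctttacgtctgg

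**Figure D5:**
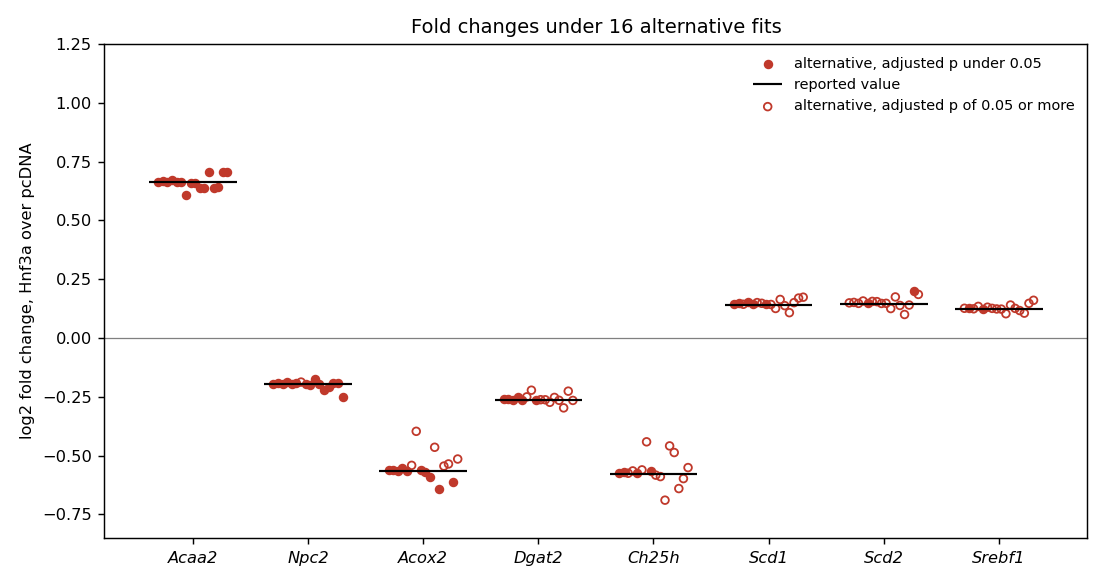
Log2 fold changes of Hnf3a over pcDNA for 8 genes under 16 alternative fits, each a circle, filled where the adjusted p was under 0.05, with the reported value as a line. Acaa2 is filled in all 16, Npc2 in 15, and Scd1 in 5.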

How the data were processed

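Polyadenylated RNA of 6 libraries, 3 Hnf3a and 3 pcDNA, was sequenced from both ends after strand marking and addition of molecular identifiers, per the labels. The submitters' processing notes name cutadapt 1.9, HISAT2 2.0.4, UMI-tools, StringTie 1.3.4d, DESeq2, edgeR and the build mm10, without roles. The authors deposited an estimated count and an FPKM value per gene and library. Use of strand, the annotation and the handling of reads shared between genes are not given in the sources used here. Because 1 fragment appeared to be worth up to 4 counts, the floor was set at 12 counts, for counting error only.

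Groups and replicate numbers came from the sample titles. Estimated counts, already whole, were filtered with filterByExpr, scaled by TMM and tested two-sided without covariates in edgeR 4.0.16 (glmQLFit with robust = TRUE, glmQLFTest, R 4.3.3), with Benjamini-Hochberg adjustment over 17824 genes and a threshold of 0.05. SE is the absolute log2 fold change over the square root of F. An exact permutation test of 3 against 3 libraries cannot go below a p of 0.1, so none was used. Deposited FPKM served for levels, ratios and overlap between groups. Alternatives were other filters, DESeq2 1.42.0 (size factors, Wald test), total-count scaling, limma 3.58.1 on log2(FPKM + 0.1) and log2(FPKM + 1), counts divided by 4, a replicate block and leaving out libraries. The edgeR fit was tested on simulated data.

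The members and lists were chosen with earlier results of these data known. All 34 members and Foxa1 were named, and of the further pathway genes every one past the threshold, up to 8 per list. Gene positions are those of the deposited table (GRCm38), overlaps come from GENCODE vM21 and promoters from RefSeq.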

Additional observations from a re-analysis of the deposited data

How the results depend on the processing

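Acaa2 kept its direction and its side of the threshold in all 16 alternatives, with log2 fold changes of 0.61 to 0.71 and adjusted p-values up to 0.00852. Of the other 33 members, 30 never passed in any alternative, and the 3 that did in some were Scd1 (5 of 16), Scd2 (2) and Srebf1 (2). The number of fatty acid synthesis members past the threshold, 0 as reported, was 1 with no filter on low counts, with total-count scaling and with counts divided by 4, 2 when only genes with 1 FPKM or more in 3 libraries were tested, 3 in DESeq2, in which 4.96% and 4.62% of all genes passed, and between 0 and 1 with 1 library left out, the 1 being Scd2 without pcDNA replicate 3. At an unadjusted p under 0.05 the counts were 6 oxidation, 3 fatty acid synthesis and 1 sterol members, 5, 4 and 6 further genes of the same pathways, and 2412 of all genes. The median of the oxidation members ranged from -0.048 to 0.043 with 1 library left out. In 14 of the 33 members other than Acaa2 the sign of the log2 fold change differed in at least 1 alternative. Among the fatty acid synthesis members these were Acaca (in 2 of 16, down to -0.02) and Fasn (in 1 of 16, at -0.03).

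The further pathway genes were less stable. Further oxidation genes past the threshold, 2 as reported, were 1 under that stricter filter, with counts divided by 4 and with the replicate block, 0 in both limma fits and without both Hnf3a replicates 2 and 3, and 0 to 2 with 1 library left out (0 without Hnf3a replicate 2 or pcDNA replicate 1). For fatty acid synthesis the 1 became 0 in both limma fits and with the block, and 0 to 1 with 1 library left out. There the 1 was Scd3, without Hnf3a replicate 1, and not Dgat2. Scd3 was not tested in the reported fit, with estimated counts of 0, 112 and 101 in Hnf3a and 0 in every pcDNA library. It was thus seen only in Hnf3a replicates 2 and 3, which held transcripts of other cell types, and their part was not tested. For sterols the 2 became 1 with DESeq2 size factors, total-count scaling, limma at a pseudocount of 0.1, the block and without both replicates, 0 with limma at a pseudocount of 1, and 1 in each fit with 1 library left out. Ch25h lost its call in 12 alternatives, Dgat2 in 10, Acox2 in 6 of 16, Ppara in 8 of 14 and Npc2 in 1.

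Over all genes, 565 became 824 in DESeq2, 659 with counts divided by 4, 265 and 248 in the limma fits, 322 without both replicates and 263 to 643 with 1 library left out (263, 286, 267 and 349 without Hnf3a replicate 2 and pcDNA replicates 1, 2 and 3). In the fit that leaves 1 Hnf3a library, that library is assumed to vary like the pcDNA libraries, and this fit was chosen after seeing the data. With the replicate number as a block, 463 genes passed. Over all genes tested, libraries of the same number did not deviate together (correlations -0.04, -0.01 and 0.01). These values show no pairing by number, but they cannot decide whether the libraries were handled in pairs. The cause of these shifts was not tested. The widest intervals among the members were those of Cpt1b and Ppargc1a.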
